A study of Mus musculus with 16 samples.

Results

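The genes that encode the proteins of the cytoplasmic ribosome were followed through the first weeks after birth in mouse ventricles. They were taken as the protein-coding genes of the count table whose symbols begin with Rpl or Rps and a digit, together with Rplp0, Rplp1, Rplp2 and Rpsa, without pseudogenes and without the Rps6k kinases. Of 53801 genes in the table, 88 met this rule. They comprised 46 proteins of the large subunit, 31 of the small subunit, 10 paralogs or retrogene copies and Rps19bp1. The last of these encodes a protein that binds Rps19 and is not itself a ribosomal protein. A further 291 genes with a matching symbol were pseudogenes or had no RefSeq entry, and 10 were Rps6k genes.

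Ventricles were taken from male and female C57BL/6JOlaHsd pups on postnatal day 1 (P01), day 4 (P04), day 9 (P09) or day 23 (P23), with 4 pups per day and 1 library per pup. Pups at P01, P04 and P09 had only their mother's milk, and pups at P23 could also eat general mouse diet, so age and diet cannot be told apart in the P23 comparisons. The libraries were made for small RNA by adding a poly(A) tail to total RNA before cDNA synthesis and PCR. Counts at mRNA genes therefore come from short fragments in small RNA libraries and are not a standard mRNA measurement. Replicates are named by the animal number in the count table.

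Ribosomal proteins assemble with ribosomal RNA into the small subunit, which decodes mRNA, and the large subunit, which forms peptide bonds. Most of their mRNAs start with a run of pyrimidines, the 5′ terminal oligopyrimidine (TOP) tract, which couples their translation to growth signalling through mTOR and the RNA-binding protein Larp1. In the heart, the weeks after birth are the time when cardiomyocytes leave the cell cycle and go on growing by enlargement, and Rpl3l is a paralog of Rpl3 whose expression is largely restricted to striated muscle.

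Total counts per library were 2301587 to 5553530, of which 6906 to 15046 fell on the 88 genes. Depth went with age, with totals of 2301587 to 2904097 at P01 and 4694722 to 5553530 at P23. Fits of libraries thinned to the shallowest total are therefore among the alternatives given below. All 10 cardiomyocyte markers had counts in these libraries, with a summed level of 35027 to 38667 normalized counts at P01 and 65174 to 91975 at P23. In P23–P01, 9 of them had a log2 fold change above 0 and 1, Myh7, was below it (-7.47). Raw counts of Myh7 were 2574, 1835, 2326 and 2589 at P01 and 19, 24, 28 and 7 at P23. A normalized count is the count divided by the TMM-scaled library size and multiplied by the mean scaled size of the 16 libraries. Of the 88 genes, 83 passed the filter on low counts and were tested among 10742 genes. Rps6 (103 counts over all libraries), Rpl24 (14), Rpl10l (40), Rpl39l (4) and Rpl32l (6) were not tested. The tested members had a median of 1318 counts over all libraries, and all genes tested had a median of 399. Levels of different genes are not compared with each other, because gene lengths were not used.

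Start regions are shown for members with large changes or many counts that were in the set of start windows used. The pyrimidine tract is the feature these mRNAs are known to share. Each window holds 10 bases before an annotated start and 20 bases from it on (RefSeq, GRCm38.p6), 5′ to 3′ on the gene's strand, with the longest run of at least 6 C or T letters in capitals.
Rpl7a (chr2:26910797-26910826, plus strand): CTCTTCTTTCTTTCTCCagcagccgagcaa
Rps24 (chr14:24490668-24490697, plus strand): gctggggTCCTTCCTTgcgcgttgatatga
Rpl39 (chrX:37085203-37085232, minus strand): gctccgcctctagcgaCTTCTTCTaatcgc
Rpl12 (chr2:32961702-32961731, plus strand): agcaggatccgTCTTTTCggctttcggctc
Rpl11 (chr4:136053374-136053403, minus strand): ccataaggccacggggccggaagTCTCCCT
Rps28 (chr17:33824543-33824572, minus strand): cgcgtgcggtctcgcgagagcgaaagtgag
Rpl37rt (chr5:115110249-115110278, minus strand): caggccagagcccgcacccagcagtgcgtg
Rpl3l (chr17:24727816-24727845, plus strand): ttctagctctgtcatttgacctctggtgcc

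Of the 88 members, 68 had an entry in the set of start windows used, with 80 start windows. Rps29, Rpl3, Rpl29, Rpl32 and Rps14 were among those without an entry in that set, although all members have RefSeq coordinates. A run of at least 6 C or T letters stood in 42 of these windows (52.5%), against 9417 of 32851 windows (28.7%) over all genes. On the other strand the order was opposite, with such a run in 12.5% of member windows and 32.0% of all windows. In the windows shown, Rpl7a had its run at the upstream edge, and the windows of Rps28, Rpl37rt and Rpl3l had none. The window of Rps24 is the upstream of its 2 annotated starts, and that of Rpl3l is likewise the upstream of 2. A match is a description of letters in a window and not a mapped start of an mRNA. Of the core members (genes of either subunit other than the paralogs) that were tested and had a window, 12 of 34 with a run fell from P01 to P23 at an adjusted p under 0.01 in edgeR's quasi-likelihood test, with a median log2 fold change of -0.38. Of those without a run, 6 of 21 fell, with a median of -0.34, and of all genes tested 19.4% fell by the same rule.

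As a group, the ribosomal protein genes took a smaller part of the counts as the pups aged. Their share of all counts averaged 0.327% ± 0.0179, 0.314% ± 0.0232, 0.292% ± 0.0193 and 0.196% ± 0.0149 from P01 to P23 in order of day (SD, n = 4 each). The P23 libraries, at 0.177% to 0.212%, lay below all P01 libraries, at 0.300% to 0.339%. Mitochondrial genes moved in the opposite direction, from 19.0% ± 0.982 to 42.4% ± 1.34 of all counts, and ribosomal RNA genes went from a mean of 45.0% to 30.7%. As a share of counts on nuclear protein-coding genes, the members held 1.86% ± 0.123 at P01 and 1.56% ± 0.262 at P23, and P23 replicate 8, at 1.94%, was above the P01 mean while the other P23 libraries were at 1.32% to 1.51%. Much of that share was Rpl7a, which made up a mean of 18.7% of member counts at P01 and 26.7% at P23, with 35.8% in P23 replicate 8. Without Rpl7a the share of nuclear protein-coding counts was 1.51% ± 0.0947, 1.52% ± 0.191, 1.41% ± 0.228 and 1.13% ± 0.0792 on the successive days. In whole ventricles, fewer cells with high levels and less RNA per cell cannot be told apart.

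Each member was also set against its own P01 mean, and the median over the 83 tested members was taken in every library (log2 of the normalized count plus 2). At P01 the medians were 0.02, -0.08, 0.09 and 0.03. They were -0.11, -0.09, -0.42 and -0.12 at P04, and -0.59, -0.13, -0.32 and -0.04 at P09. At P23 they were -0.38, -0.42, -0.42 and -0.29. All 4 P23 libraries were below all P01 libraries and close to one another, whereas P04 replicate 4 and P09 replicate 2 stood below the other libraries of their days. The day means were 0.01 ± 0.07, -0.19 ± 0.16, -0.27 ± 0.24 and -0.38 ± 0.06 (SD, n = 4).

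**Figure D1:**
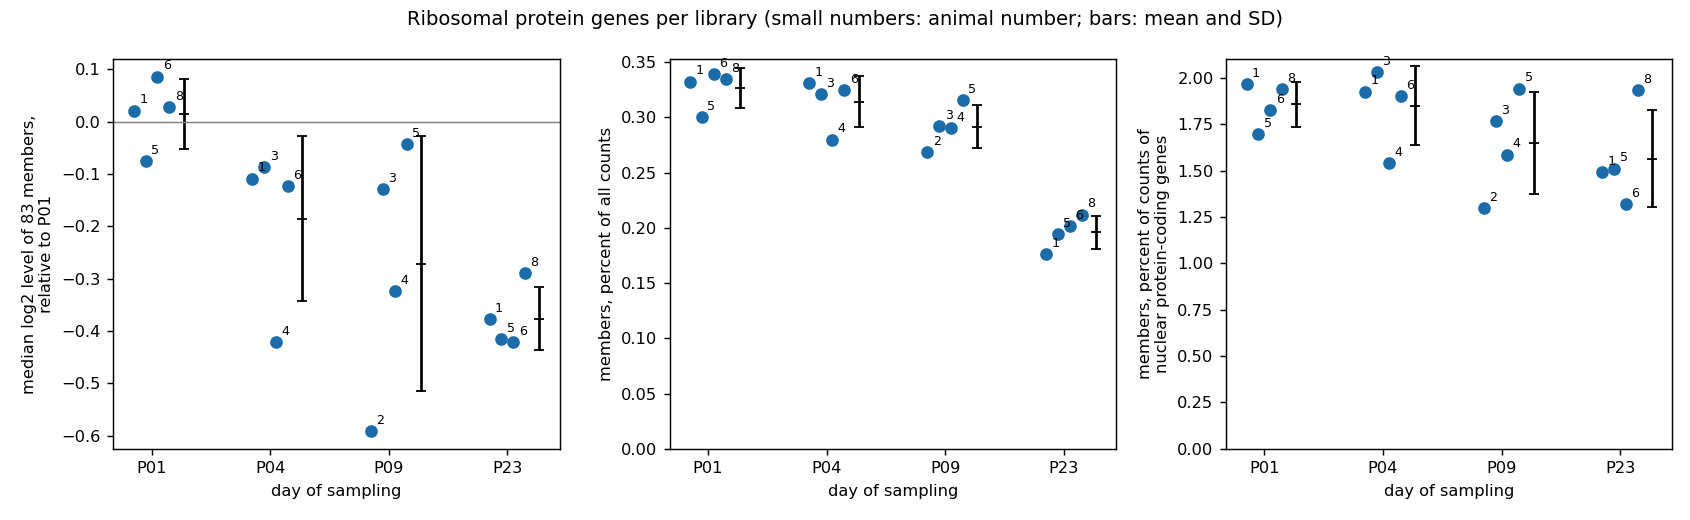
Ribosomal protein genes in each library by postnatal day, as the median log2 level of the 83 tested members relative to P01 (left), the percent of all counts (middle) and the percent of counts on nuclear protein-coding genes (right), with 1 point per library, its animal number beside it and black bars for the mean and SD of 4 libraries. The P23 medians sat between -0.42 and -0.29, and those of P09 spread from -0.59 to -0.04.

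Between pups of one day, single members varied less than all genes tested at P01, P04 and P23, and more at P09. The median coefficient of variation over the tested members was 14.0%, 17.8%, 19.1% and 13.3% on the successive days, against 23.4%, 20.3%, 17.8% and 22.4% over all genes tested. This comparison was not matched for count, and the members had more counts (a median of 1318 against 399). The day means of 37 of 83 members fell at each step from P01 to P23 (44.6%), against 16.7% of all genes tested. They rose at each step for 4 members (4.82%), against 16.5%. The highest day mean was at P01 for 56 members (67.5%), against 32.4% of all genes.

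Most calls lay between the youngest and the oldest pups. In the P23–P01 comparison 29 of 83 members fell at an adjusted p under 0.01 with no minimum for the fold change (34.9%), against 19.4% of all genes tested, and 3 members rose (3.61%), against 17.7%. Of the nuclear protein-coding genes tested, 17.3% fell and 18.5% rose by the same rule. The falls were small, from 1.31-fold to 2.06-fold with a median of 1.63-fold. With the fold change also required to exceed 1.8, as the study did for its miRNAs, 7 members fell (8.43%), against 16.6% of all genes, and 3 rose (3.61%), against 13.5%. The count of 7 was 4 without P23 replicate 6, where Rpl12, Rpl37rt and Rpl11 dropped below the fold minimum. The median log2 fold change was -0.39 over the members and 0.00 over all genes, and 65 of 83 members were below 0. The middle part of the members, between the quartiles, ran from -0.68 to -0.05. In 38 members all P23 libraries were below all P01 libraries (45.8%), against 21.7% of all genes, and in 5 all were above (6.02%), against 20% of all genes.

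Members with more counts carried most of these falls. Above the members' median of 1318 counts, 26 of 41 members fell at any size (63.4%), against 385 of 1718 genes with as many counts (22.4%), and the median log2 fold change of these members was -0.61. At or below it, 3 of 42 members fell (7.14%), against 1702 of 9024 genes (18.9%), with a median of -0.18. Large-subunit genes had a median of -0.39 with 15 of 45 falling, and small-subunit genes one of -0.38 with 12 of 30 falling. Of the 7 tested paralogs, 2 fell and 1 rose.

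**Figure D2:**
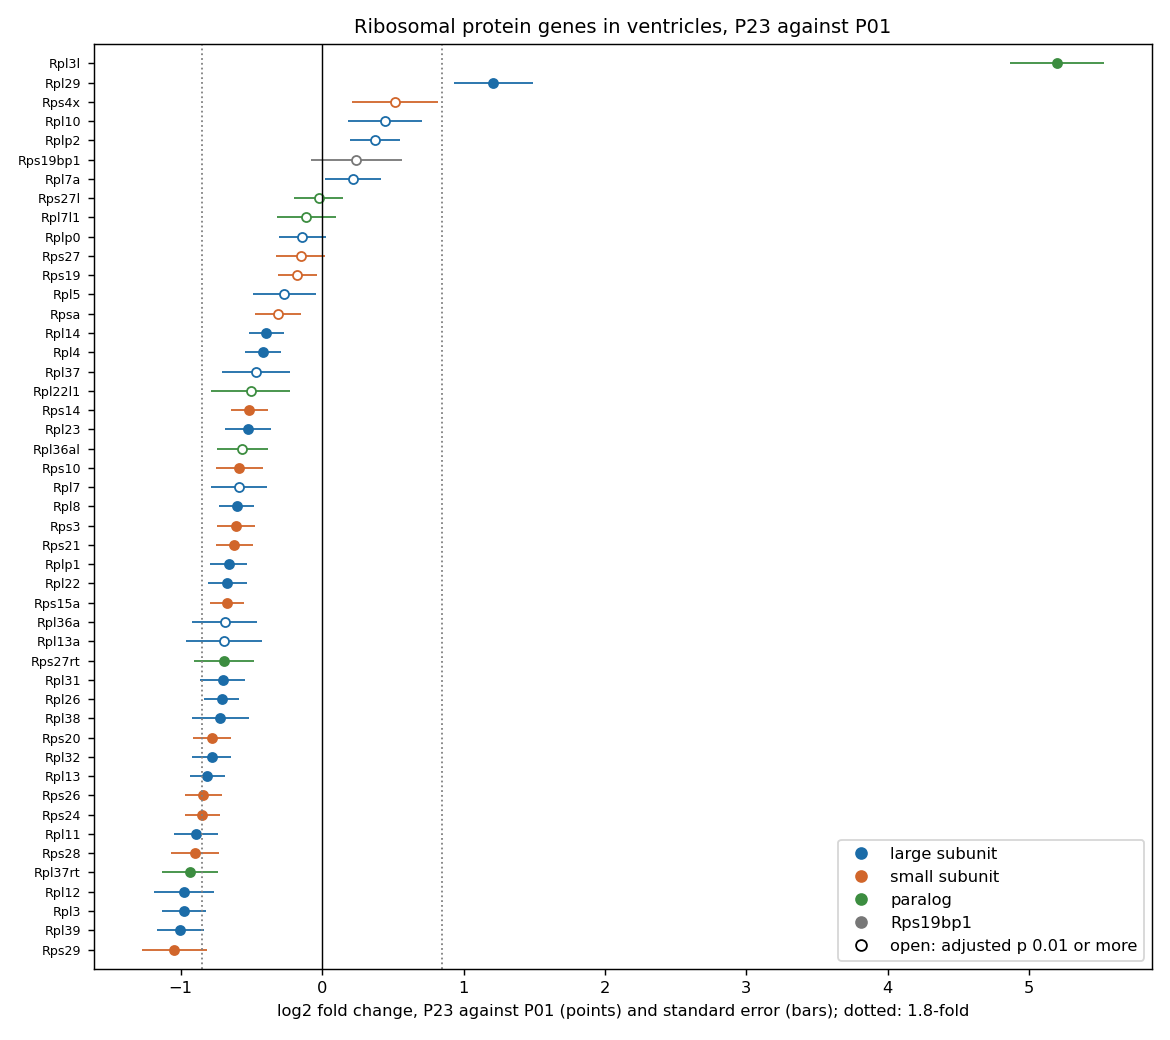
Log2 fold change P23–P01 from edgeR (x axis) of the tested members named in the text (y axis, ordered by size), with bars for the standard error, colours for the subunit or class, filled points for an adjusted p under 0.01 and dotted lines at 1.8-fold. The values run from -1.04 for Rps29 to 5.20 for Rpl3l.

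The steps between neighbouring days held few calls among the members. In P04–P01, 3 members fell at any size (3.61%), against 5.05% of all genes, and 1 of them, Rps29, passed the fold minimum, against 4.13%. The any-size count was 1 whichever of the 8 libraries was left out, so at least 2 of the 3 calls were then lost. In the same step 0 members rose in edgeR at either rule, against 1.96% at any size and 1.07% past the fold minimum. At an unadjusted p under 0.05, 22 members were lower and 3 higher, and DESeq2 gave 4 falls and 0 rises at any size. Without P04 replicate 1, edgeR gave 1 rise past the fold minimum. All P04 libraries were below all P01 libraries in 16 members (19.3%), against 8.93% of genes, and above them in 1 (7.4% of genes). The median log2 fold change was -0.17 over the members, with 63 of 83 below 0, and 0.01 over all genes. In P09–P04, edgeR called 0 members in either direction at either rule, against 4.56% of genes falling and 3.43% rising at any size and 3.71% and 1.4% past the fold minimum. The unadjusted p was under 0.05 for 3 lower and 2 higher members, and DESeq2 called 0 and 0. The libraries of the days did not overlap in 3 members that were lower at P09 (9.67% of genes) and 1 that was higher (9.36%). The median there was -0.08, and it was 0.05 without P09 replicate 2. In P23–P09, 1 member fell at any size, Rpl3 (7.48% of all genes), which became 3 without P09 replicate 2, and 2 rose past the fold minimum, Rpl3l and Rpl7a, against 4.76% of genes, and against 8.23% at any size. No member fell past the fold minimum in that step by edgeR, against 5.55% of genes, while 11 members were lower at an unadjusted p under 0.05 and DESeq2 gave 1 fall at any size. Rpl3 was past the fold minimum in that step without P09 replicate 2, P09 replicate 4 or P23 replicate 5. In 3 members all P23 libraries were below all P09 libraries (12.8% of genes) and in 3 all were above (12.9%). These steps share libraries, since P04 and P09 each enter a pair of them.

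Over the first 9 days together, 22 members fell at any size in P09–P01 (26.5%), against 13.9% of all genes, and 3 rose, against 10.3%. Among members above the median count, 18 of 41 fell (43.9%), against 20.9% of genes with as many counts. The count of 22 was 11 without P09 replicate 2 and 23 without P09 replicate 5. Past the fold minimum 1 member fell (Rps29), against 11.5% of genes, and 2 rose, among them Rpl29, against 6.18%. The 1 fall became 2 without P01 replicate 5, 6 or 8, 3 without P09 replicate 3 and 4 without P09 replicate 5. All P09 libraries were below all P01 libraries in 30 members (36.1%), against 17.8%, and above them in 5, against 15.6%. The P09–P01 and P23–P01 comparisons use the same P01 libraries.

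**Figure D3:**
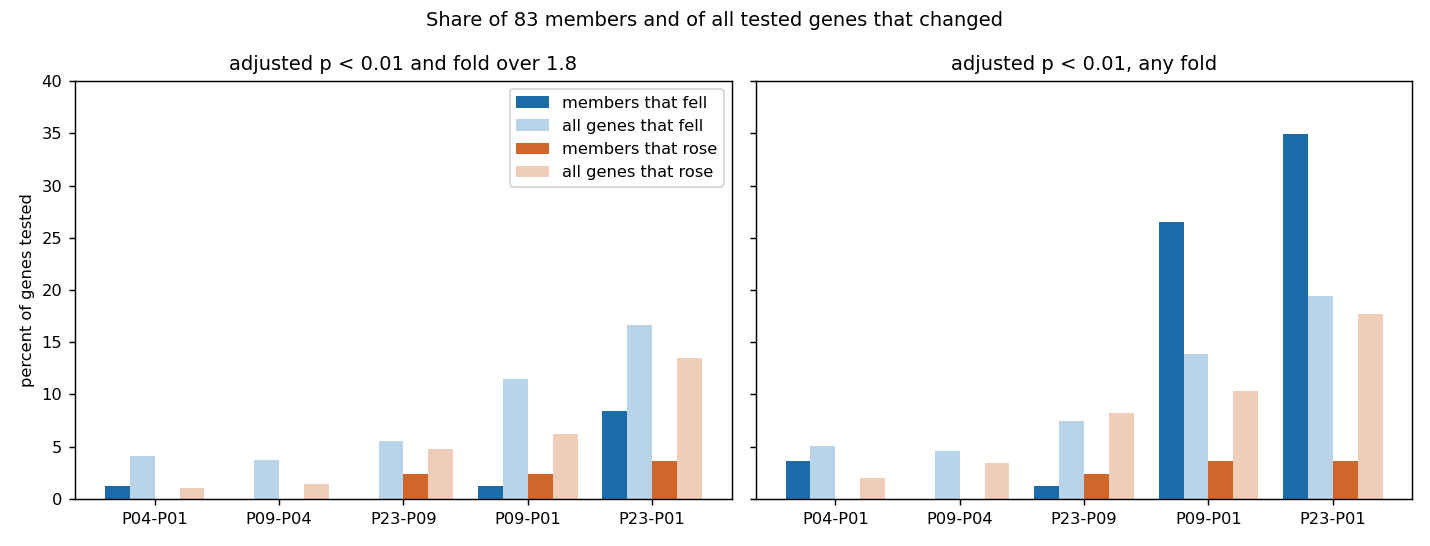
Percent of the 83 tested members (dark bars) and of all 10742 genes tested (pale bars) that fell or rose in edgeR in each comparison of days, at an adjusted p under 0.01 with a fold change over 1.8 (left) or of any size (right). Falling members of any size reached 34.9% in P23–P01, against 19.4% of all genes.

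Among small-subunit genes, Rps29, which encodes a short zinc-binding protein, was the one already called at P04. Its normalized counts were 183, 195, 219 and 214 at P01, 121, 113, 71.8 and 97.9 at P04, 46.3, 88.1, 85.6 and 128 at P09 and 92.3, 90.4, 86.8 and 126 at P23. Every library from P04 on was below every P01 library, and the later days overlapped one another. The log2 fold change was -1.01 in P04–P01 (SE 0.23, adjusted p = 0.0067 by edgeR) and -1.04 in P23–P01 (SE 0.23, adjusted p = 0.0012). The P04–P01 call was lost when any 1 of P01 replicates 1, 5, 6 and 8 or P04 replicates 3, 4 and 6 was left out, at adjusted p values of 0.0128 to 0.0248 by edgeR.

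Rps24, a small-subunit protein whose human gene is mutated in some families with Diamond-Blackfan anemia, stood just below the fold minimum. Its levels were 500.0, 468, 429 and 434 at P01, 333, 372, 346 and 343 at P04, 261, 316, 296 and 341 at P09 and 265, 262, 224 and 268 at P23. All P04, P09 and P23 libraries were below all P01 libraries, and the P23–P01 log2 fold change was -0.85 (SE 0.12, adjusted p = 9.1e-07 by edgeR). Rps28, which lies near the mRNA exit of the small subunit, had 174, 125, 169 and 158 at P01 and 84.6, 87.5, 79.3 and 85.2 at P23, with no overlap. It fell by 0.90 on the log2 scale (SE 0.17, adjusted p = 4.5e-05 by edgeR).

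Rps14, a small-subunit protein with the second-highest total of the members (14202 counts), had 1109, 1028, 1107 and 1034 at P01, 899.7, 963, 952 and 1038 at P04, 844, 889, 789 and 879.5 at P09 and 721, 752, 643 and 882 at P23. The P23 libraries were all below the P01 libraries, and the fall was modest at -0.51 (SE 0.13, adjusted p = 0.0016 by edgeR).

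The laminin receptor homologue Rpsa, a small-subunit protein, was not called in P23–P01, with 131, 129, 141 and 113 at P01 and 87.9, 98.1, 108 and 122 at P23 and a log2 fold change of -0.31 (adjusted p = 0.12 by edgeR). Small-subunit genes that fell by less than the fold minimum in P23–P01 also included Rps26, Rps20, Rps15a, Rps21, Rps3 and Rps10, with log2 fold changes from -0.84 for Rps26 to -0.59 for Rps10.

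In the large subunit, Rpl39, a small protein that lines the exit tunnel of the nascent chain, had 329, 298, 319 and 277 at P01, 245, 276, 159 and 209 at P04, 139.5, 223, 207 and 258 at P09 and 143, 156, 131 and 183 at P23. Its P04, P09 and P23 libraries were all below P01, and it fell by 1.00 in P23–P01 on the log2 scale (SE 0.17, adjusted p = 1.3e-05 by edgeR). Rpl12, at the base of the stalk, had 145, 159, 148 and 122 at P01 and 73.6, 60.6, 56.0 and 104 at P23, without overlap and with a log2 fold change of -0.98 (SE 0.21, adjusted p = 6.1e-04 by edgeR). Rpl11, which is incorporated together with Rpl5 and can bind the p53 regulator Mdm2, had 233, 250.3, 198 and 224 at P01 and 109.9, 142, 109 and 126 at P23. It too fell without overlap, at -0.89 (SE 0.16, adjusted p = 1.8e-05 by edgeR).

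Rpl32, a large-subunit protein, moved early, with 431, 315, 381 and 398 at P01, 209.5, 279.9, 234 and 254 at P04, 196, 269.9, 243 and 258 at P09 and 208, 193, 225 and 262 at P23. Every later library was below every P01 library, and the fall was -0.64 in P04–P01 (adjusted p = 0.0014 by edgeR) and -0.78 in P23–P01 (adjusted p = 2.1e-05), both less than the fold minimum. Rpl13 was the third member called at any size in P04–P01, at -0.46 (adjusted p = 0.0099 by edgeR), and the any-size count of that step was 1 with any of its libraries left out. The other large-subunit genes that fell by less than the fold minimum in P23–P01 were Rpl13, Rpl38, Rpl26, Rpl31, Rpl22, Rpl8, Rpl23, Rpl4 and Rpl14, from -0.81 for Rpl13 to -0.39 for Rpl14, beside Rplp1. Members named here only because they fell at any size were chosen after their values were seen.

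Rpl29, a large-subunit gene, rose in P09–P01 and in P23–P01. Its levels were 7.55, 15.2, 14.1 and 10.3 at P01, 17.7, 23.0, 17.1 and 13.2 at P04, 22.6, 23.4, 29.6 and 24.7 at P09 and 26.4, 20.2, 27.1 and 36.5 at P23. All P09 and all P23 libraries were above all P01 libraries, and the log2 fold change was 1.10 in P09–P01 (adjusted p = 0.0019 by edgeR) and 1.21 in P23–P01 (SE 0.28, adjusted p = 5.7e-04). The P09–P01 call was lost without P01 replicate 1 (adjusted p = 0.0120 by edgeR) and in thinned libraries (0.0181).

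**Figure D4:**
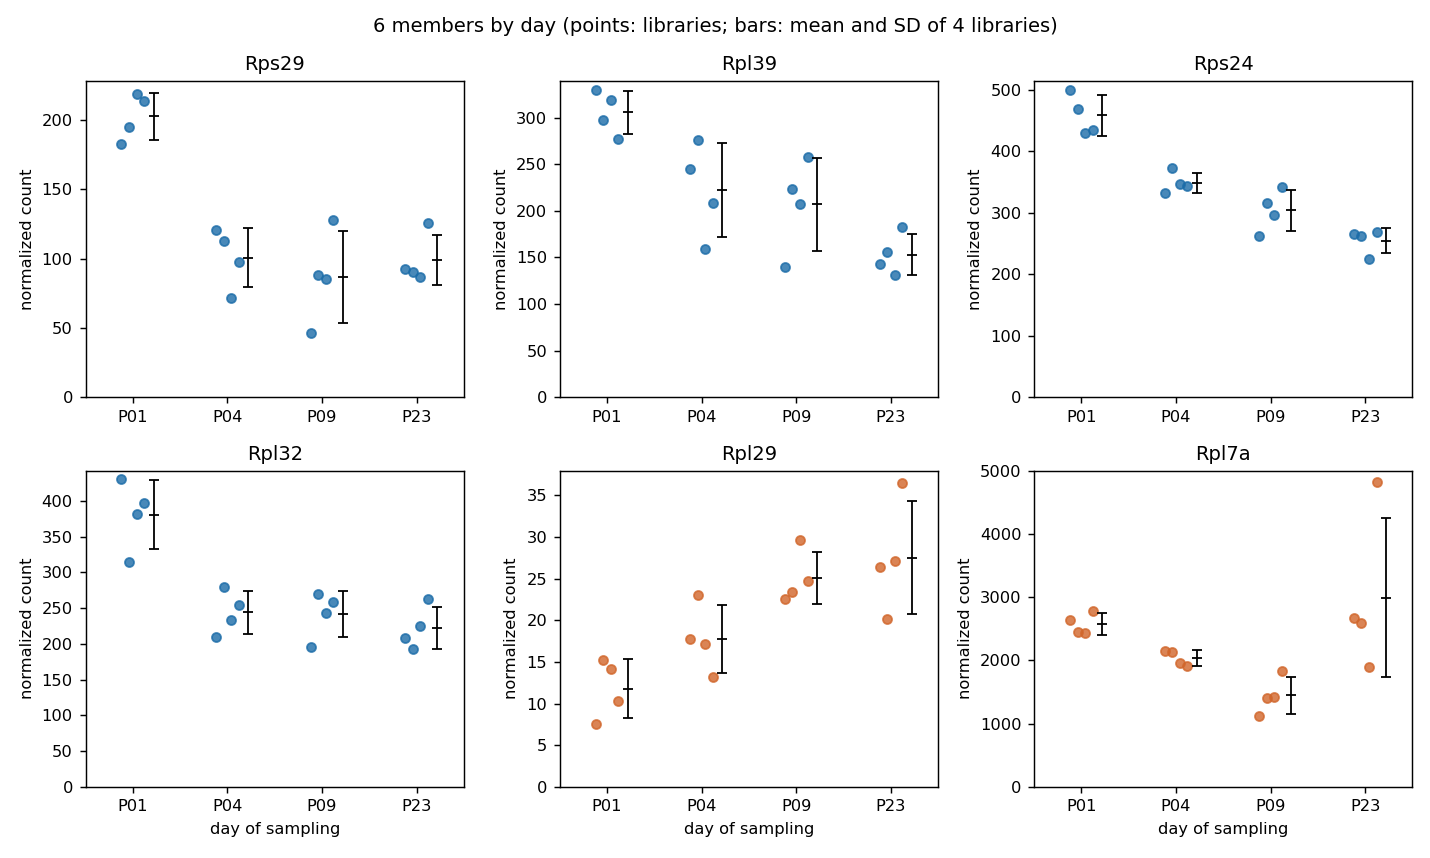
Normalized counts of Rps29, Rpl39, Rps24, Rpl29, Rpl32 and Rpl7a by postnatal day, with 1 point per library, black bars for the mean and SD of 4 libraries and a separate axis from 0 for each gene. Rps29, Rpl39, Rps24 and Rpl32 were lower in all P23 libraries than in all P01 libraries, Rpl29 was higher, and Rpl7a ran from 2432 to 2784 at P01, 1124 to 1840 at P09 and 1903 to 4818 at P23.

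The stalk proteins recruit elongation factors to the large subunit, and 1 of the 3 was called. Rplp1 fell from 453, 466, 432 and 459 at P01 to 281, 288, 259 and 318 at P23, with no overlap and a log2 fold change of -0.66 (SE 0.13, adjusted p = 9.7e-05 by edgeR). Rplp0 had 174, 182, 199 and 195 and 162, 159.7, 167 and 193, and its log2 fold change was -0.14 (adjusted p = 0.51 by edgeR). Rplp2 had 65.0, 101, 91.8 and 95.4 and 96.7, 122, 126 and 111, with a log2 fold change of 0.38 (adjusted p = 0.079). Neither Rplp0 nor Rplp2 was called, and the differences between the 3 stalk genes were not tested.

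Rpl7a, a large-subunit protein with the highest total of the members (33585 counts), was lowest at P09. Its levels were 2636, 2450, 2432 and 2784 at P01, 2146, 2137, 1958 and 1907 at P04, 1124, 1410, 1421 and 1840 at P09 and 2665, 2591, 1903 and 4818 at P23. All P09 libraries were below all P01 libraries and all P23 libraries were above all P09 libraries, with P23 replicate 8 far above the rest. The log2 fold change was -0.83 in P09–P01 (adjusted p = 0.0015 by edgeR), 1.05 in P23–P09 (SE 0.20, adjusted p = 2.0e-04) and 0.22 in P23–P01 (adjusted p = 0.38). Without P23 replicate 8, edgeR gave 0.73 in P23–P09 (adjusted p = 0.00111), which is below the fold minimum, and -0.09 in P23–P01.

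Small nucleolar RNAs (snoRNAs), which guide chemical changes of ribosomal RNA, are often encoded in introns of ribosomal protein genes. By position alone, 30 tested members held 59 snoRNA genes, of which 45 were matched to the table and 28 had counts. The span of Rpl7a held Gm23969 and also LOC115489587, LOC115489586 and LOC115489588, which had no matched row. Gm23969, in the span of Rpl7a, had 9472, 10344, 11348 and 10798 at P01, 7222, 8730, 6069 and 6934 at P04, 3918, 5999, 5305 and 6269 at P09 and 9018, 8096, 5928 and 9209 at P23. Like its host it was lowest at P09, with log2 fold changes of -0.97 in P09–P01 (adjusted p = 5.0e-05 by edgeR), 0.59 in P23–P09 (adjusted p = 0.012) and -0.38 in P23–P01 (adjusted p = 0.07). The sources used here do not state how reads overlapping Rpl7a and a snoRNA gene within it were assigned. The part of the snoRNAs in the Rpl7a counts, those without a matched row included, was not tested.

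Other snoRNA genes with many counts lay in members that did or did not fall. Snord43, in Rpl3, had log2 fold changes of -0.93 in P09–P01 and -0.76 in P23–P01 (adjusted p = 0.0069 by edgeR). Its raw counts were 2448, 2385, 3341 and 2979 at P01 and 2012, 2385, 1551 and 3167 at P23. Snord83b, also in Rpl3, had raw counts of 3172, 2630, 4106 and 3826 at P01 and 8790, 8879, 7571 and 9836 at P23. Raw counts are not scaled for depth, which rose with age. In the same libraries Snord83b rose against Snord43, so the snoRNA genes of Rpl3 did not move alike. Values for Snord72 in Rpl37 were -0.79 in P09–P01 and -0.40 in P23–P01 (adjusted p = 0.053), and those for Snord34 in Rpl13a were -0.90 and -0.64 (adjusted p = 0.002). Snord32a, also in Rpl13a, had -0.77 and 0.26 (adjusted p = 0.2), and Gm23344 in Rpl4 had -0.83 and -0.06 (adjusted p = 0.81). In P23–P09, Snord32a had a log2 fold change of 1.03 and Gm23344 one of 0.77. A low level at P09 was thus not particular to Gm23969 in Rpl7a. Of the members that held a snoRNA gene, 10 of 30 fell in P23–P01 at any size, and of the others 19 of 53, against 19.4% of all genes.

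Rpl3, which lies near the peptidyl transferase centre, and its striated-muscle form Rpl3l were called in opposite directions. Rpl3 had 140.5, 104, 121 and 110.0 at P01, 102, 133, 129.7 and 111 at P04, 92.1, 116, 95.5 and 122 at P09 and 65.9, 72.1, 48.5 and 55.5 at P23. Its first 3 days overlapped one another and all P23 libraries were below all earlier ones, with log2 fold changes of -0.81 in P23–P09 (SE 0.15, adjusted p = 1.2e-04 by edgeR) and -0.98 in P23–P01 (SE 0.15, adjusted p = 3.9e-06). Rpl3l had raw counts of 0, 2, 2 and 2 at P01, 1, 6, 5 and 5 at P04, 14, 6, 11 and 7 at P09 and 78, 84, 102 and 73 at P23. It was near the limit of detection up to P09 and high in every P23 library.

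Scaled for library size, the P23 counts of Rpl3l (337 in all) were 13.0 times those of P09 (38 in all), with a 95% counting interval of 9.31 to 18.8, and edgeR gave a log2 fold change of 3.70 (SE 0.23, adjusted p = 3.2e-13). Against P01, with 6 counts, the ratio was 38.5, with an interval of 17.5 to 105.7, and the fitted log2 fold change of 5.20 (adjusted p = 5.8e-14 by edgeR) depends on the prior count. These intervals cover counting error only and leave out the spread between pups, because the counts of the pups of each day were pooled. The libraries also have no molecular identifiers, so reads are not counts of molecules. The ratio of P09 to P01 was 2.95 (1.24 to 8.54) and that of P04 to P01 was 1.77 (0.666 to 5.48). In P09–P01, Rpl3l had an adjusted p of 0.019 in edgeR.

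The elongation factor pair Eef1a1 and Eef1a2, of which the second is the form of adult muscle and neurons, is given beside them as a paralog pair outside the ribosome. Eef1a1, whose mRNA also carries a TOP tract, went from 2091, 1754, 1999 and 1988 at P01 through 1085, 1165, 1278 and 1297 at P09 to 488, 512, 376 and 611 at P23, and Eef1a2 from 149.6, 144, 124 and 145 through 291, 279, 291 and 269 to 683, 692, 818 and 625. Neither P23 group overlapped its P01 group, and the log2 fold changes in P23–P01 were -1.98 (SE 0.15, adjusted p = 2.3e-12 by edgeR) and 2.32 (SE 0.14, adjusted p = 9.1e-15).

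**Figure D5:**
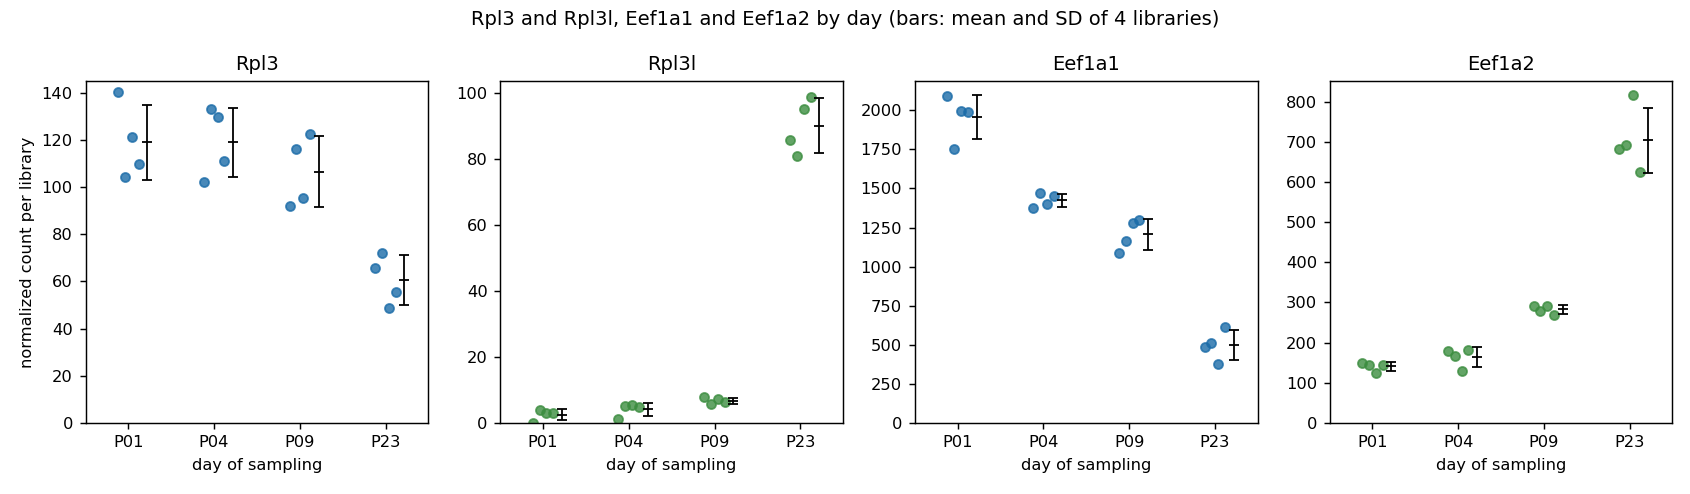
Normalized counts of Rpl3, Rpl3l, Eef1a1 and Eef1a2 in each library by postnatal day, with 1 point per library and black bars for the mean and SD of 4 libraries, and a separate axis from 0 for each gene. Rpl3 and Eef1a1 were lowest at P23, where Rpl3l and Eef1a2 were highest.

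No other tested paralog or retrogene copy rose in P23–P01. Rpl22l1 had a log2 fold change of -0.51 in P23–P01 (adjusted p = 0.13 by edgeR) and its parent Rpl22 one of -0.67 (adjusted p = 1.2e-04). Values for Rpl7l1 and Rpl7 were -0.11 (adjusted p = 0.69) and -0.59 (adjusted p = 0.019) by edgeR, and neither was called. Rpl37rt, a copy of Rpl37, went from 49.9, 43.6, 33.9 and 42.5 at P01 to 24.2, 24.0, 18.7 and 21.6 at P23 and fell by 0.93 on the log2 scale (SE 0.20, adjusted p = 2.3e-04 by edgeR), and Rpl37 itself had -0.47 (adjusted p = 0.12). Rps27rt fell at any size (-0.69, adjusted p = 0.0078 by edgeR), whereas Rps27 had -0.15 (adjusted p = 0.49) and Rps27l -0.02 (adjusted p = 0.92).

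Rpl36a and Rpl36al, a nearly identical pair, had log2 fold changes of -0.69 (adjusted p = 0.014 by edgeR) and -0.56 (adjusted p = 0.011). Counts of such copies are uncertain, because the sources used here do not state what was done with reads mapping to more than 1 place, and many members also have pseudogenes. Rpl10 (0.44, adjusted p = 0.17 by edgeR) and Rps4x (0.51, adjusted p = 0.17), parents of Rpl10l and Rps4l, were not called, and neither was Rps19bp1 (0.24, adjusted p = 0.56).

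Among ribosome components that the naming rule misses, Rack1, a scaffold protein on the small-subunit head, fell at any size from 296, 279, 325 and 277 at P01 to 175, 213, 197 and 215 at P23 (-0.56, SE 0.13, adjusted p = 4.5e-04 by edgeR). Fau, a fusion of a ubiquitin-like protein with Rps30, had -0.02 (adjusted p = 0.97 by edgeR).

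Of 20 other mRNAs known to carry a TOP tract, 5 fell in P23–P01 at any size (25%), against 19.4% of all genes, 1 rose (5%), against 17.7%, and the median log2 fold change was -0.25. Past the fold minimum, Eef1a1 and the poly(A)-binding protein gene Pabpc1 fell (Pabpc1 -0.95, adjusted p = 2.7e-05 by edgeR), and Naca, which encodes a subunit of the nascent polypeptide-associated complex and a muscle isoform, rose (1.67, adjusted p = 1.9e-08). Of 39 tested ribosome biogenesis genes, 4 fell (10.3%) at any size, against 19.4% of all genes, and 2 rose (5.13%), against 17.7%. Their median was 0.01, and Rrp9, a component of a nucleolar particle that processes ribosomal RNA, was the one past the fold minimum (1.85, adjusted p = 1.2e-04 by edgeR). Rrp9 had low raw counts, 4, 2, 8 and 7 at P01 and 28, 41, 28 and 15 at P23. Of 12 regulators of ribosomal protein mRNA, 3 fell (25%), against 19.4% of all genes, and 2 rose (16.7%), against 17.7%, so as a list they were near those shares. Myc, a transcription factor that drives ribosome production, fell (-2.06, adjusted p = 1.7e-05 by edgeR), as did its relative Mycn (-1.40, adjusted p = 0.0025), whose libraries overlapped. Raw counts of Myc were low, 20, 16, 17 and 14 at P01 and 10, 6, 2 and 5 at P23. Its log2 fold change ran from -2.46 to -1.70 with single libraries left out. The Mycn call was lost by edgeR without P01 replicate 1 (adjusted p = 0.0303), P23 replicate 1 (0.0153) or P23 replicate 6 (0.014) and in thinned libraries (0.149). The cap-binding factor gene Eif4e rose (0.89, adjusted p = 0.0016 by edgeR), as did the poly(A)-binding Larp4 (0.85, adjusted p = 4.7e-04), whose libraries overlapped. In thinned libraries Eif4e had a log2 fold change of 0.69 and was not called (adjusted p = 0.0777 by edgeR), and both genes came below the fold minimum in several leave-one-out fits and scalings.

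Markers of dividing cells and of other cell types moved between the same days. All 8 cell cycle genes fell in P23–P01, from a summed 483 to 659 normalized counts at P01 to 30.8 to 42.0 at P23. Of all genes tested, 19.4% fell and 17.7% rose at any size in that comparison. Erythroid markers (8 of 9 listed had counts) went from 1434 to 1516 at P01 to 5118 to 6774 at P23, with 5 of 5 tested rising. Leukocyte markers (9 of 9) went from 83.3 to 92.4 up to 179 to 234, with 2 of 5 tested rising. Among these 5, 1 had a log2 fold change below 0 (-0.73). Endothelial markers (6 of 6) stood at 400.3 to 467 at P01 and 416 to 533 at P23. Smooth muscle markers (4 of 4) went from 284 to 439 up to 580.1 to 866, with 2 of 3 tested rising, and fibroblast markers (6 of 6) were at 1829 to 2350 and 1711 to 2226, with 2 of 6 rising and 2 falling. No listed marker matched in the table was at 0 in all libraries. Their part in the changes of the ribosomal protein genes was not tested.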

How the data were processed

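Ventricular RNA of 16 mice was sequenced as small RNA libraries with the SMARTer smRNA-Seq kit. According to the submitters' processing notes, the authors used bcl2fastq, Trimmomatic, STAR with GRCm38.p6 and featureCounts, and the deposited values are whole-number read counts per gene, not normalized. Not given in the sources used here were the tool versions, the strand option and how featureCounts treated multi-mapping reads or overlapping annotations. The reads are short and carry no molecular identifiers, which bears on genes with near-identical copies or internal snoRNAs.

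Of 53801 genes, 53620 had a symbol and 37793 a RefSeq biotype, and every row named a gene. The columns were grouped by the day in their names, and 1 value column with no matching sample was not used. Counts were tested with edgeR 4.0.16 (R 4.3.3, limma 3.58.1), using TMM factors, filterByExpr (minimum count 10, minimum total 15), robust glmQLFit and glmQLFTest in 1 fit of all libraries. Benjamini-Hochberg adjustment ran over 10742 genes, and standard errors were derived from the F statistic. Calls needed an adjusted p under 0.01, with or without a fold change over 1.8. P-values measure the spread between separate pups. Libraries of one day differed by more than sampling noise in all 24 pairs over all genes (chi-square of 4.66 to 24.2 per degree of freedom, and 0.928 to 9.18 over the members alone, lowest for P01 replicates 1 and 5) and each was counted once.

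Named with values were the 8 largest falls and rises in P23–P01 and the 4 in each step among called members without overlap between the libraries, the 5 members with the most counts, the stalk genes and Rpsa, the paralogs with their parents, Rps19bp1, called genes of related lists (at most 6 per list) and the 5 most counted snoRNA genes with Snord43. Snord83b, in the same host as Snord43, was added outside this rule. The members, lists and rules were chosen with earlier results of these data known. Results for some genes that the rule would name are not reported here. snoRNA hosts were assigned by position without regard to strand. Alternatives were other scalings, no filter, other thresholds, fits of only the compared groups, thinned libraries, DESeq2 1.42.0 and leaving out each library. Scripts in R and Python 3.11.15 (pandas 2.3.3, matplotlib 3.10.9) were tested on simulated data.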

Additional observations from a re-analysis of the deposited data

Results flagged for a closer look

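In 204 groups of 4 libraries, each 1 gene or summary on 1 day, a library was looked for that stood apart from the other 3. Its gap to the nearest of them, divided by the range of the group, had to exceed Dixon's 95% critical value for 4 samples. This was met in 6 groups, where chance gives about 1 in 20 groups, or 10.2. Among members, Rps29 in P23 replicate 8 stood at 125.8 normalized counts against 86.8 to 92.3 in the other P23 libraries. Rpl3l in P04 replicate 1 was at 1.04 against 4.70 to 5.36, Rps24 in P23 replicate 6 was at 224 against 262 to 268, and Rps27 in P01 replicate 5 was at 83.4 against 115 to 120.1. The median member level in P04 replicate 4 was -0.42 on the log2 scale relative to P01, against -0.12 to -0.09 in the other P04 libraries. Outside the members, Larp4 in P01 replicate 1 was at 43.8 against 26.5 to 28.2.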

How the results depend on the processing

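The medians of the members stayed below 0 in every alternative run, except that of P09–P04 (-0.08) without P09 replicate 2. Over the alternatives that keep all libraries, 125 values of the member counts and medians stayed near the reported one and 15 moved. The 1 fall in P09–P01 became 2 with no filter, DESeq2 size factors, scaling by nuclear protein-coding genes, a fit of the compared days only, DESeq2 or thinned libraries, and 3 with members left out of the scaling. Without the fold minimum the falls were 3 in P04–P01, 1 in P23–P09, 22 in P09–P01 and 29 in P23–P01. With no filter, P23–P09 had 1 fall and the P09–P01 median was -0.10. At an adjusted p under 0.05, 1 member rose in P04–P01, and in thinned libraries 0 rose in P09–P01. The cause of these moves was not tested. Leaving out single libraries gave 0 to 1 falls and 0 to 1 rises in P04–P01, 0 to 1 falls and 1 to 2 rises in P23–P09, 1 to 4 falls and 2 to 3 rises in P09–P01, 4 to 10 falls and 2 to 3 rises in P23–P01, and a P09–P04 median of -0.14 to 0.054. At any size, P23–P01 then had 23 to 28 falls.

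These uncalled P23–P01 values changed sign. Rps27l was 0.064 with no filter, 0.24 in thinned libraries and -0.077 to 0.10 with single libraries left out. Fau was 0.072 with no filter and -0.13 to 0.15, Gm23344 was 0.027 and -0.15 to 0.10, and Rps19bp1 was -0.28 in thinned libraries and -0.011 to 0.46. Rpl7a was -0.092 to 0.40 and Rpl7l1 -0.23 to 0.070 with single libraries left out. With no filter, Rpl37rt (-0.85), Rps28 (-0.81) and Rpl11 (-0.80) fell short of the fold minimum in P23–P01. In thinned libraries Rpl3 (-0.77, adjusted p = 0.00124 by edgeR) and Rps28 (-0.80, adjusted p = 0.00301) did too. Rps28 also fell short without P01 replicate 1 (-0.83) or P01 replicate 6 (-0.84). Rpl11 did so without P01 replicate 5 (-0.83), P23 replicate 1 (-0.82) or P23 replicate 6 (-0.82). Rpl37rt did so without P01 replicate 1 (-0.83) or P23 replicate 6 (-0.83). No paired analysis was possible, because each pup was sampled on 1 day only. The count columns carry animal numbers that no sample label gives, so the labels' replicate numbers could not be tied to libraries.

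Of the 88 members, 4 had under 100 counts over all libraries. The 42 tested members at or under the median count had 3 falls at any size in P23–P01 (7.14%) and a median of -0.18, where 18.9% of genes in that count range fell. The part of depth in this was not tested beyond the thinned libraries.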
